A study of Mus musculus with 11 samples.

Results

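The PARP family genes *Parp1*, *Parp2*, *Parp3*, *Parp8*, *Parp9*, *Parp10*, *Parp11*, *Parp12* and *Parp14* were taken by name, together with the ubiquitin ligase gene *Dtx3l*, and make 10 of the 26283 genes in the deposited tables. RNA was sequenced in bulk from 11 whole mammary tumors of C57BL/6 females aged 18 weeks, all carrying the MMTV-PyMT oncogene and MMTV-Cre. In 6 tumors both *Pcbp1* alleles were floxed (PyMT *Pcbp1*–/–), and in 5 tumors both were wild-type (PyMT *Pcbp1*+/+). The MMTV promoter drives Cre in mammary epithelium, so that other cells of a tumor keep *Pcbp1*, and the tumors were frozen whole. Nothing in the labels says that each tumor came from a separate animal, so the p-values measure only the spread between these tumors.

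PARP enzymes transfer ADP-ribose from NAD to proteins or nucleic acids. *Parp1*, *Parp2* and *Parp3* encode enzymes that act at DNA breaks, whereas *Parp9*, *Parp10*, *Parp11*, *Parp12* and *Parp14* belong to a branch whose transcription interferon can raise, and the *Dtx3l* product forms a complex with the *Parp9* product. Interferons act through receptors, Janus kinases and transcription factors such as *Stat2* and *Irf9*, in tumor cells as well as in the leukocytes, vessels and fibroblasts around them.

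The estimated counts of a tumor summed to between 11239931 and 14092192 in PyMT *Pcbp1*–/– tumors and between 10543189 and 11411776 in PyMT *Pcbp1*+/+ tumors, and the part of this difference in depth in the results was not tested. Each of the 10 genes passed the filter on low counts, with at least 48 counts in every tumor. Levels are given as CPM, the deposited counts scaled to a common library total. The limit that a count of 0 allows, 3 counts, amounted to between 0.213 and 0.285 CPM, which covers counting error only.

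The luminal epithelial markers matched the labelled tissue, with summed levels between 1240 and 2370 CPM over both groups. Their most abundant gene over all 11 tumors, the adhesion gene *Cdh1*, averaged 311 CPM in PyMT *Pcbp1*–/– and 334 CPM in PyMT *Pcbp1*+/+ tumors. Macrophage, fibroblast and endothelial markers were also present, while *Cd3d* had 0 CPM in some tumors and the B cell marker *Cd79b* averaged 0.371 and 0.328 CPM; *Cd79a*, *Ms4a1*, *Ly6g* and *Retnlg* were not analysed here. Of 51 marker genes tested, none of them a B cell marker, 0 were called in either direction at an adjusted p under 0.05 by edgeR, DESeq2 or limma on log2(CPM + 1), and 1 (*Clec9a*, lower) by limma-voom. At an unadjusted p under 0.05, 2 were lower (*Krt14* and *Clec9a*, named after their values were seen) and 0 were higher in edgeR. Over all 19232 genes tested, 2025 were lower and 1576 higher at that threshold. The highest control value of *Krt14* was 277 CPM, against a median of 20.3 CPM in PyMT *Pcbp1*+/+ and 14.8 CPM in PyMT *Pcbp1*–/– tumors. Its list of basal markers went both ways, with 4 of 7 negative and a median log2 fold change of -0.04. The fold changes leaned one way in some lists without a call: all 5 adipocyte markers (median log2 fold change -0.80) and all 6 endothelial markers (-0.22) were negative. Positive were 7 of 8 macrophage markers (median 0.21) and all but 1 of 6 fibroblast markers (median 0.24). Adipocyte markers, with *Fabp4* the most abundant, summed to between 1.14 and 27.9 CPM in PyMT *Pcbp1*–/– tumors (mean 10.7 CPM, median 6.29 CPM). In PyMT *Pcbp1*+/+ tumors they summed to 57.3 CPM in replicate 3 and to between 3.22 and 10.5 CPM in the others. Each of these others was below the PyMT *Pcbp1*–/– mean, so the higher control mean of 17.2 CPM rests on replicate 3. The part of these cell types in the levels of the 10 genes was not tested.

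A single control tumor stood apart. PyMT *Pcbp1*+/+ replicate 5 had the lowest value of its group for 9 of the 10 genes, the exception being *Parp1*, and results that rest on it are given with and without it. Its leukocyte markers summed to 46.2 CPM, against 59.5 to 113 CPM for its genotype otherwise and between 51.0 and 110 CPM in PyMT *Pcbp1*–/– tumors. *Ptprc*, the most abundant gene of that list, averaged 34.7 CPM in PyMT *Pcbp1*–/– and 37.5 CPM in PyMT *Pcbp1*+/+ tumors. The macrophage markers of replicate 5 summed to 128 CPM, against at least 167 CPM in any other control, with *C1qb* the most abundant. Its basal epithelial markers summed to 93.9 CPM, against at least 264 CPM in the other controls, and its luminal markers to 1930 CPM. The endothelial markers, of which *Cdh5* was the most abundant, summed to 52.6 CPM in it against at least 73.4 CPM in the other controls, and the T and NK cell markers, led by *Cd8a*, to 2.68 CPM against at least 3.41 CPM. Its fibroblast (317 CPM), dendritic cell (17 CPM), neutrophil (2.23 CPM) and adipocyte (9.56 CPM) markers were not the lowest of the controls. The part of these cell types in the low values of replicate 5 was not tested.

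The targeted gene, *Pcbp1* (ENSMUSG00000051695.6, chromosome 6 of GRCm38, 86524492 to 86526321, minus strand), had 268, 271, 225, 220 and 259 CPM in PyMT *Pcbp1*+/+ replicates 1 to 5. In the 6 PyMT *Pcbp1*–/– tumors it ranged from 15.4 to 33.6 CPM with a median of 20.9 CPM, so that every tumor matched its labelled genotype. Its fitted level in PyMT *Pcbp1*–/– tumors was 9.26% of that in PyMT *Pcbp1*+/+ tumors (log2 fold change -3.43, standard error 0.19, edgeR adjusted p = 4.72e-06).

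Of the 10 genes, 4 passed the edgeR test as lower without *Pcbp1*, at an adjusted p under 0.05, where 1.66% of the 19232 genes tested were called lower. These were *Parp14*, *Parp12* and *Parp10* of the interferon-linked branch and *Parp3* of the DNA-repair group. None of the 10 was called higher, against 0.608% of all genes, and the count of higher members was also 0 at an unadjusted p under 0.05 and in DESeq2, limma-voom and limma on log2(CPM + 1). At an unadjusted p under 0.05, 7 members were lower, the 4 called together with *Parp9*, *Dtx3l* and *Parp11*, where 2025 of the 19232 genes tested were lower and 1576 higher at that threshold. The log2 fold changes ran from -1.09 to -0.09 with a median of -0.58, beside a median of 0.00 over all genes tested. All 10 were negative, except that *Parp1* turned to 0.05 in limma-voom. In bulk tumors, fewer cells of a type that expresses a gene and less of its RNA per cell cannot be told apart. The number of members called lower depended on the tumors: it was 5 without PyMT *Pcbp1*+/+ replicate 5 (with 1.65% of all genes called lower), and 1, *Parp3*, without PyMT *Pcbp1*–/– replicate 3 or 4 or PyMT *Pcbp1*+/+ replicate 1, 3 or 4. It was 2 without PyMT *Pcbp1*–/– replicate 5 or 6. The genes called lower over the whole table also went down, from 319 to between 144 and 184 (0.755% to 0.946%) with 1 member called and to 163 and 212 (0.856% and 1.12%) with 2, while the median log2 fold change of the interferon-linked members lay between -0.81 and -0.59 with each tumor left out, against -0.71.

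**Figure D1:**
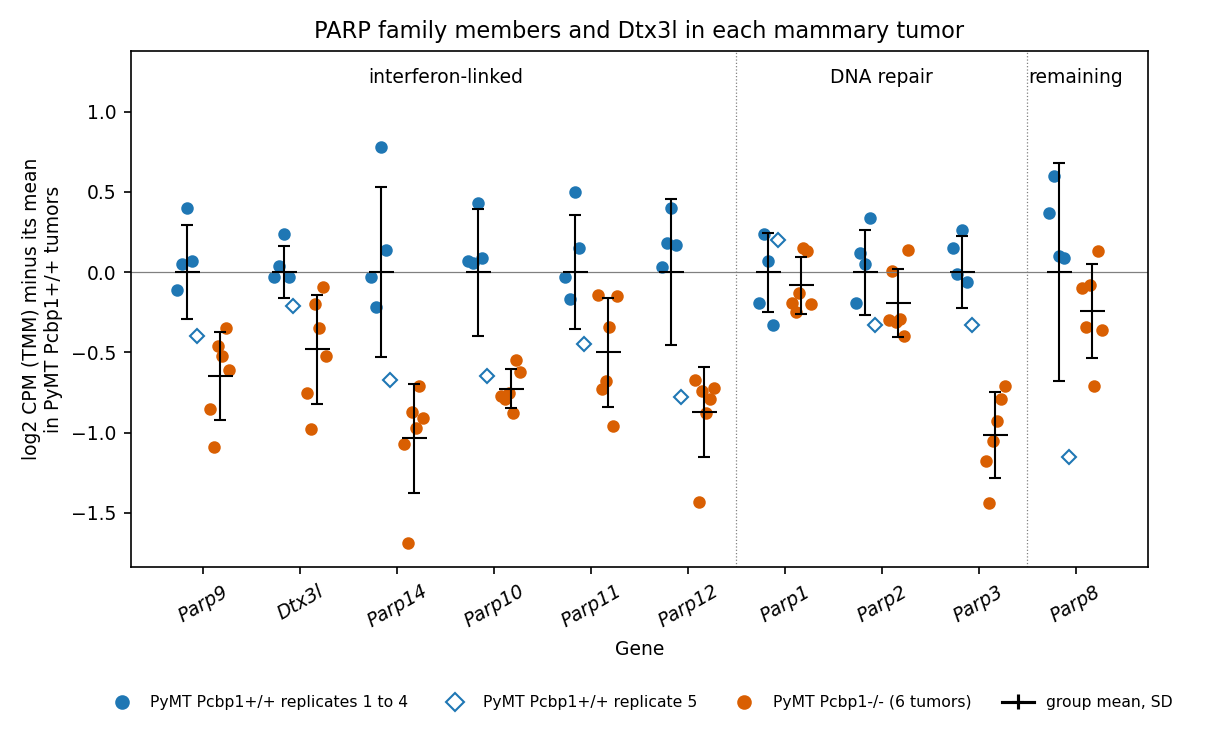
Level of each gene in each tumor, as log2 CPM with TMM factors minus the mean of the 5 PyMT *Pcbp1*+/+ tumors; each point is a tumor, black marks are the group mean and SD, and open diamonds are PyMT *Pcbp1*+/+ replicate 5. On this scale the groups do not overlap for *Parp3* and *Parp14*, although for *Parp14* replicate 5, at -0.67, lies just above the highest PyMT *Pcbp1*–/– tumor, at -0.71.

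The 6 interferon-linked genes all had negative fold changes, with a median of -0.71, and 3 of them were called lower. *Parp14*, which encodes a large enzyme with macrodomains that bind ADP-ribose, had 155, 127, 233, 171 and 87.0 CPM in PyMT *Pcbp1*+/+ replicates 1 to 5. In PyMT *Pcbp1*–/– tumors it had 46.6 CPM at the lowest, 75.8 CPM at the median and 88.4 CPM at the highest. In CPM the groups overlapped only because 1 PyMT *Pcbp1*–/– tumor lay above PyMT *Pcbp1*+/+ replicate 5, and with TMM factors they did not overlap. The fitted level was 47.1% of that in PyMT *Pcbp1*+/+ tumors (log2 fold change -1.09, 95% interval -1.59 to -0.58, edgeR adjusted p = 0.0319), and the adjusted p was 0.0122 without replicate 5, within a range of 0.00071 to 0.0837 over the alternatives. The *Parp14* call was lost with other tumors left out, at an edgeR adjusted p of 0.0619, 0.0719, 0.0690, 0.0522 and 0.0560 without PyMT *Pcbp1*–/– replicates 1, 3, 4, 5 and 6, and of 0.0611, 0.0657 and 0.0837 without PyMT *Pcbp1*+/+ replicates 1, 3 and 4. With each of the 11 tumors left out in turn, its log2 fold change lay between -1.23 and -0.84.

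*Parp12* (ENSMUSG00000038507.6) encodes a zinc-finger enzyme that adds single ADP-ribose units. It had 38.0, 39.8, 42.2, 41.1 and 19.0 CPM in PyMT *Pcbp1*+/+ replicates 1 to 5. In PyMT *Pcbp1*–/– tumors its lowest, median and highest levels were 13.2, 20.2 and 22 CPM. Replicate 5 thus lay inside the range of the other genotype, with 4 of 6 PyMT *Pcbp1*–/– tumors above it, while the remaining controls were all above that range. The log2 fold change was -0.90 (standard error 0.19, edgeR adjusted p = 0.0307), and -1.05 without replicate 5 (adjusted p = 0.00269, within a range of 0.000958 to 0.101 over the alternatives). The *Parp12* call was lost without PyMT *Pcbp1*–/– replicates 3, 4, 5 and 6 (edgeR adjusted p of 0.0700, 0.0694, 0.0663 and 0.0514) and without PyMT *Pcbp1*+/+ replicates 1, 3 and 4 (0.0638, 0.0803 and 0.0851), although its log2 fold change with each tumor left out lay between -1.05 and -0.80. On all 11 tumors it was lost in limma on log2(CPM + 1), at an adjusted p of 0.0532.

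*Parp10* (ENSMUSG00000063268.12), which encodes another enzyme that adds single ADP-ribose units, had 49.1, 45.8, 54.0, 48.8 and 26.2 CPM in PyMT *Pcbp1*+/+ replicates 1 to 5. Among PyMT *Pcbp1*–/– tumors it varied little, from 23.3 to 29.3 CPM with a median of 25.9 CPM. Again only replicate 5 lay within the range of the other group. The log2 fold change was -0.76 (standard error 0.15, edgeR adjusted p = 0.0243), and -0.89 without replicate 5 (adjusted p = 0.00121, within a range of 0.000476 to 0.107 over the alternatives). The *Parp10* call was lost without PyMT *Pcbp1*–/– replicates 3 and 4 (edgeR adjusted p of 0.0645 and 0.0624) and without PyMT *Pcbp1*+/+ replicates 1, 3 and 4 (0.0572, 0.0591 and 0.0671), although its log2 fold change with each tumor left out lay between -0.89 and -0.65.

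*Parp9* and *Dtx3l*, the partners in a complex of a macrodomain protein and a ubiquitin ligase, did not pass the threshold. *Parp9* had 66.6, 69.9, 81.3, 74.1 and 47.9 CPM in PyMT *Pcbp1*+/+ replicates 1 to 5, against 32.2, 44.7 and 51.9 CPM as the lowest, median and highest of the PyMT *Pcbp1*–/– tumors. The log2 fold change of *Parp9* was -0.65 (95% interval -0.99 to -0.31), with an edgeR adjusted p of 0.0510, just over the threshold. On all 11 tumors *Parp9* was called by DESeq2 (adjusted p = 0.00564) and limma-voom (0.0135), and in edgeR with library sizes only (0.0497), with at least 1 CPM in at least 5 tumors (0.0496) and with protein-coding genes only (0.0474). Without replicate 5, left out as the lowest control, the groups did not overlap, and *Parp9* was called in edgeR at an adjusted p of 0.0277, within a range of 0.00564 to 0.116 over the alternatives. *Dtx3l* had 165, 162, 170, 161 and 128 CPM in PyMT *Pcbp1*+/+ replicates 1 to 5, against 81.6, 115 and 145 CPM as the lowest, median and highest of the PyMT *Pcbp1*–/– tumors. Here too the groups were apart once replicate 5 was left out, although the log2 fold change of -0.46 (95% interval -0.78 to -0.13, edgeR adjusted p = 0.132) was smaller and remained uncalled without it (adjusted p = 0.120, range 0.0550 to 0.258). Within a tumor, the log2 ratio of *Parp9* to *Dtx3l* CPM, relative to the control mean, averaged -0.17 in PyMT *Pcbp1*–/– tumors and ranged from -0.26 to -0.09, overlapping the control range of -0.19 to 0.16.

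*Parp11* (ENSMUSG00000037997.12), whose product adds single ADP-ribose units and lies at the nuclear envelope, had 24.3, 20.7, 30.1, 26.9 and 15.9 CPM in PyMT *Pcbp1*+/+ replicates 1 to 5, against 11.6, 16.2 and 21.3 CPM as the lowest, median and highest of the PyMT *Pcbp1*–/– tumors. The groups overlapped with and without replicate 5. The log2 fold change of -0.50 (95% interval -0.92 to -0.09) had an edgeR adjusted p of 0.183, and without replicate 5 it was -0.60 (adjusted p = 0.113). Limma-voom called it, at an adjusted p of 0.0362, where the alternatives ranged from 0.0362 to 0.367.

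Taking the median of these 6 genes within each tumor, as log2 CPM with TMM factors relative to the PyMT *Pcbp1*+/+ mean, gave -0.03, 0.04, 0.42, 0.12 and -0.55 in PyMT *Pcbp1*+/+ replicates 1 to 5. In PyMT *Pcbp1*–/– replicates 1 to 6 the same median was -0.76, -1.04, -0.71, -0.70, -0.63 and -0.61. On this scale, replicate 5 sat next to the PyMT *Pcbp1*–/– tumors, and PyMT *Pcbp1*–/– replicate 2 was the lowest of all 11.

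Of the 3 DNA-repair genes, *Parp3* was called and *Parp1* and *Parp2* were not. *Parp3* (ENSMUSG00000023249.15), whose product acts at double-strand breaks, had 11.5, 9.67, 10.7, 9.75 and 7.23 CPM in PyMT *Pcbp1*+/+ replicates 1 to 5. In PyMT *Pcbp1*–/– tumors it had 3.60 CPM at the lowest, 4.80 CPM at the median and 5.80 CPM at the highest. Every PyMT *Pcbp1*–/– tumor was below every PyMT *Pcbp1*+/+ tumor, replicate 5 included. In CPM this held for *Parp3* alone among the 10 genes, and it held for 2.02% of all genes tested. The fitted level was 49.3% of that in PyMT *Pcbp1*+/+ tumors (log2 fold change -1.02, 95% interval -1.36 to -0.68, edgeR adjusted p = 0.00614). The call passed under each of the 19 alternatives, with adjusted p-values up to 0.0480. The counts behind it were low, between 48 and 126 per tumor.

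*Parp1* (ENSMUSG00000026496.11, chromosome 1, 180568924 to 180601254, plus strand), the main enzyme of ADP-ribose chains at DNA breaks, had 23.4, 29.6, 24.0, 20.8 and 26.8 CPM in PyMT *Pcbp1*+/+ replicates 1 to 5, with 21.2, 22.4 and 27.3 CPM as the lowest, median and highest of the PyMT *Pcbp1*–/– tumors. All 6 PyMT *Pcbp1*–/– tumors were above the lowest control. Its log2 fold change of -0.09 had a 95% interval from -0.36 to 0.19 (edgeR adjusted p = 0.749). *Parp2* (ENSMUSG00000036023.6, chromosome 14, 50807841 to 50821301, plus strand), which encodes a related enzyme of chain formation, ranged from 5.27 to 9.48 CPM in PyMT *Pcbp1*+/+ and from 5.25 to 7.65 CPM in PyMT *Pcbp1*–/– tumors, with a log2 fold change of -0.20 (95% interval -0.53 to 0.13, edgeR adjusted p = 0.515). Relative to *Parp1* within the same tumor, the log2 ratio of *Parp3* CPM, taken against the control mean, lay between -1.21 and -0.51 in PyMT *Pcbp1*–/– tumors and between -0.53 and 0.33 in the controls. *Parp14* relative to *Parp1* lay between -1.44 and -0.71, with the controls between -0.87 and 0.71. These ratios are descriptions, and whether the fold changes of the genes differ from each other was not tested.

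*Parp8* (ENSMUSG00000021725.9, chromosome 13, 116854820 to 117025537, minus strand), the remaining gene, encodes a less studied enzyme of the family. It had 14.3, 15.6, 10.1, 11.5 and 4.29 CPM in PyMT *Pcbp1*+/+ replicates 1 to 5, so that replicate 5 was below all 6 PyMT *Pcbp1*–/– tumors, which ranged from 6.14 to 11.0 CPM. The log2 fold change was -0.33 (95% interval -0.88 to 0.22, edgeR adjusted p = 0.511), and -0.53 without replicate 5 (adjusted p = 0.124, the lowest of a range up to 0.733 over the alternatives).

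**Figure D2:**
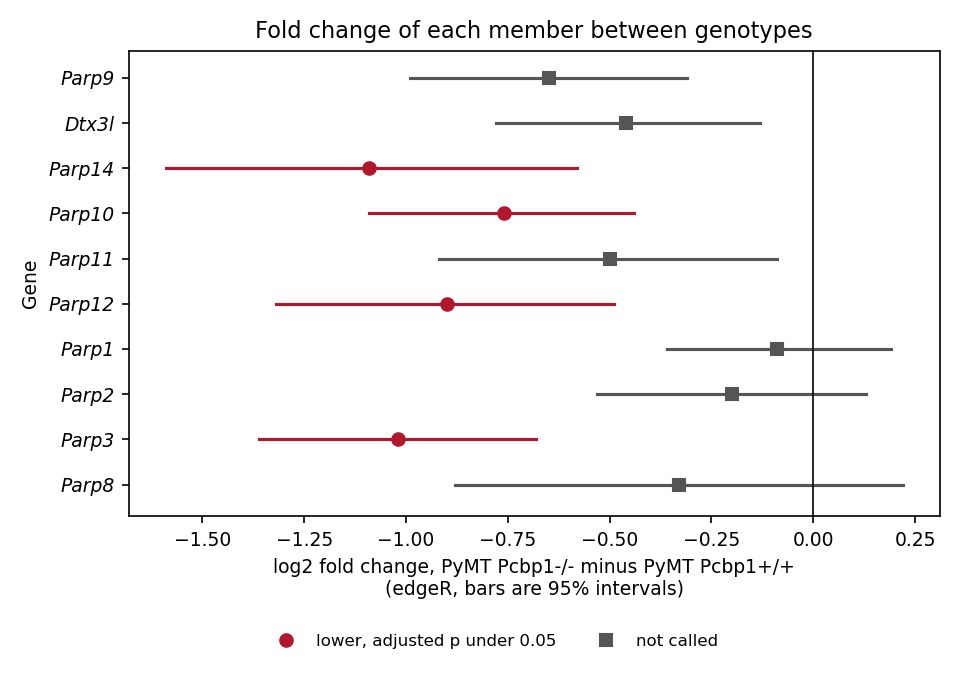
The log2 fold change of each gene, PyMT *Pcbp1*–/– minus PyMT *Pcbp1*+/+, from edgeR on 6 and 5 tumors; bars are 95% intervals, circles are genes called lower at an adjusted p under 0.05 and squares are genes not called. The points run from -1.09 for *Parp14* to -0.09 for *Parp1*, and the intervals of *Parp1*, *Parp2* and *Parp8* include 0.

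Per kb of transcript, the order of levels in PyMT *Pcbp1*+/+ tumors began with *Dtx3l* at 29.6 ± 3.19 CPM per kb (SD, n = 5), *Parp14* at 20.6 ± 7.21 and *Parp9* at 19.1 ± 3.52. It went on with *Parp10* at 13.2 ± 3.2, *Parp12* at 10.2 ± 2.74, *Parp1* at 6.41 ± 0.869 and *Parp11* at 6.11 ± 1.43 CPM per kb, and ended with *Parp3* at 3.49 ± 0.573, *Parp2* at 3.2 ± 0.695 and *Parp8* at 1.59 ± 0.629 CPM per kb. *Parp14* and *Parp9*, *Parp1* and *Parp11*, and *Parp3* and *Parp2* did not differ beyond their spread. *Parp12* was above *Parp1* in 4 of 5 controls, with overlapping ranges. Ranges also overlapped for *Dtx3l* and *Parp14*, *Parp9* and *Parp10*, and *Parp10* and *Parp12*, although the former was higher in all 5 controls. In PyMT *Pcbp1*–/– tumors *Dtx3l* was again first, at 21.6 ± 4.61 CPM per kb (SD, n = 6). *Parp14*, at 9.71 ± 1.89 CPM per kb, was below *Parp9*, at 12.2 ± 2.05 CPM per kb, in each of those 6 tumors, although their ranges overlapped. *Parp1*, at 6.05 ± 0.703, and *Parp12*, at 5.44 ± 0.892 CPM per kb, did not differ beyond their spread there. *Parp3*, at 1.71 ± 0.286 CPM per kb, was below *Parp2*, at 2.78 ± 0.437 CPM per kb, in all 6. The transcript lengths come from a later annotation than the counts, so these levels are approximate.

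Around the mean of its own genotype, a tumor high in *Parp9* was also high in *Dtx3l* (Pearson r = 0.92, Spearman rho = 0.92, n = 11) and in *Parp14* (r = 0.92, rho = 0.90, n = 11). Without the 2 tumors farthest from the median of *Parp9* these were r = 0.89 and r = 0.80. *Parp14* went with *Parp12* less evenly (r = 0.86, rho = 0.47, n = 11), and r was 0.59 without PyMT *Pcbp1*–/– replicate 2 and PyMT *Pcbp1*+/+ replicate 5. *Parp3*, of the DNA-repair genes, went with *Parp14* (r = 0.82, rho = 0.67, n = 11, and r = 0.54 without the same 2 tumors) and with *Parp9* (r = 0.82, rho = 0.64, n = 11, and r = 0.83 without PyMT *Pcbp1*–/– replicates 2 and 6). For *Parp14* and *Parp1* r was 0.01 (rho = -0.02, n = 11), and for *Parp11* and *Dtx3l*, both interferon-linked, r was -0.01 (rho = -0.10, n = 11). Both values of a pair come from the same library and share its depth and mix of cells, and all correlations describe these 11 libraries only.

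Among the 19231 other genes tested, the 5 closest to *Parp14* by this measure were *Rtp4* (r = 0.95), *Irgm2* (0.94), *Igtp* (0.93), *Nlrc5* (0.92) and *H2-Q5* (0.92), with Spearman rho between 0.71 and 0.94 over 11 tumors and r between 0.84 and 0.96 without the 2 farthest. Of these, *Rtp4* had a log2 fold change of -1.20 (edgeR adjusted p = 0.0181), *Irgm2* of -1.41 (0.0264), *Igtp* of -1.80 (0.0149) and *H2-Q5* of -2.38 (0.0212), while *Nlrc5*, at -0.53 (0.465), was not called. The 5 closest to *Parp9* were *Itgae* (r = 0.94), *Irgm1* (0.93), the processed pseudogenes RP23-387L12.3 (0.93) and RP23-83I13.6 (0.93), and *Dtx3l* (0.92), with rho from 0.89 to 0.95 and r from 0.82 to 0.90 without the 2 farthest. Of these only *Irgm1* was called, with a log2 fold change of -1.07 (edgeR adjusted p = 0.0233). *Itgae* and both pseudogenes were low, with group means between 0.96 and 1.57 CPM. The 5 closest to *Parp3* were *Cpsf2* (r = 0.96), *Pdik1l* (0.93), *Foxo6* (0.90), *Socs1* (0.89) and *Psme2b* (0.88), and those closest to *Parp1* were *Nploc4* (0.95), *Top3a* (0.95), *Cox17* (0.95), *Zmiz2* (0.94) and *Slx4* (0.94). Over both sets rho lay between 0.76 and 0.95, and r without the 2 tumors farthest for *Parp3* or *Parp1* between 0.80 and 0.96. No gene of these last groups was called in edgeR, with adjusted p-values from 0.129 upwards. *Foxo6* was low, with means of 0.811 CPM in PyMT *Pcbp1*–/– and 1.59 CPM in PyMT *Pcbp1*+/+ tumors. Each set holds the 5 highest of 19231 correlations over 11 tumors, so a high r follows in part from that choice.

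*Parp14*, *Dtx3l* and *Parp9* lie close together on chromosome 16 of GRCm38. *Parp14* (ENSMUSG00000034422.14) spans 35832874 to 35871544 on the minus strand and *Dtx3l* (ENSMUSG00000049502.17) spans 35926511 to 35939151 on the minus strand, with 54966 bases between them. *Parp9* (ENSMUSG00000022906.15), on the plus strand from 35938470 to 35972605, overlaps the start of *Dtx3l* by 682 bases. The counts of *Parp9* and *Dtx3l* were fractional in 100% of tumors, that is, over 0.0005 from a whole number, and since counting by strand is not stated, reads in the shared bases cannot be assigned with certainty. Of the neighbours on either side neither was called in edgeR: *Hspbap1*, next to *Parp14*, had a log2 fold change of -0.05 (edgeR adjusted p = 0.906), and the importin gene *Kpna1*, next to *Parp9*, had 0.27 (adjusted p = 0.340). A short unconfirmed transcript inside *Parp14*, RP23-78C2.6, was at -1.03 (edgeR adjusted p = 0.0621) and shares its strand, so that its reads and those of *Parp14* cannot be told apart.

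**Figure D3:**
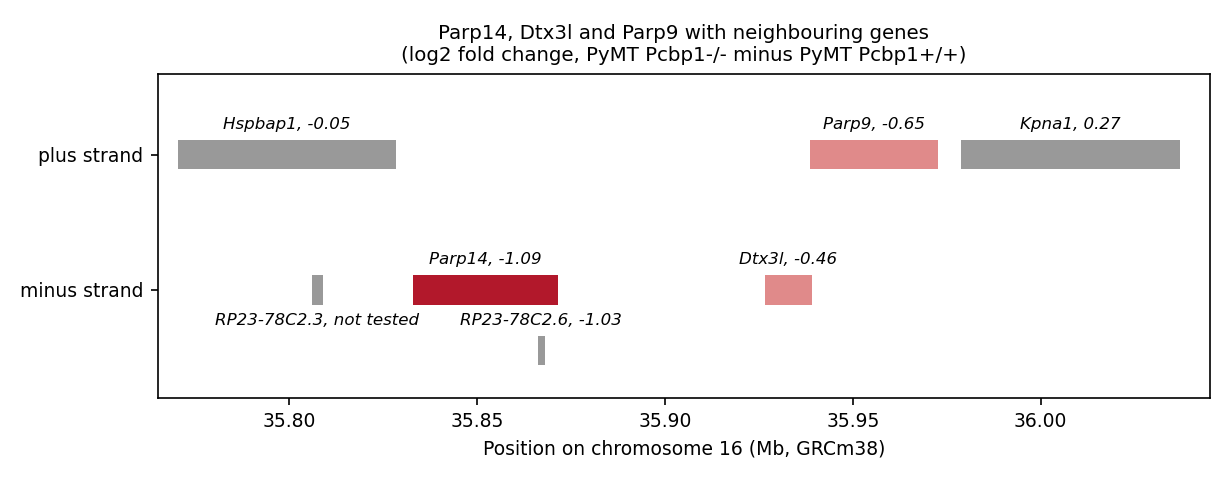
Map of *Parp14*, *Dtx3l*, *Parp9* and their neighbours on chromosome 16 of GRCm38, by position in Mb and strand, with the log2 fold change of PyMT *Pcbp1*–/– minus PyMT *Pcbp1*+/+ beside each name. Dark red is a listed gene called lower, light red a listed gene not called and grey a neighbour; the values are -1.09 for *Parp14*, -0.46 for *Dtx3l*, -0.65 for *Parp9*, -0.05 for *Hspbap1* and 0.27 for *Kpna1*.

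The other genes lie apart, *Parp11* (127446840 to 127494261, plus strand) and *Parp12* (39086410 to 39118349, minus strand) both on chromosome 6. *Parp10* (chromosome 15, 76231174 to 76243441, minus strand) overlaps the plectin gene *Plec* by 1401 bases on the same strand. *Plec* is far more abundant, at a mean and SD of 740 ± 146 CPM with and 692 ± 73.8 CPM without *Pcbp1*, and had a log2 fold change of -0.09 (edgeR adjusted p = 0.727), and how many of the shared reads were counted for *Parp10* is not known. *Parp3* (chromosome 9, 106470322 to 106476949, minus strand) overlaps *Rrp9* by 987 bases on the opposite strand. *Rrp9*, a gene of ribosomal RNA processing, averaged 1.72 ± 0.445 CPM (SD) with and 1.55 ± 0.316 CPM without *Pcbp1*, with a log2 fold change of -0.13 (edgeR adjusted p = 0.786). The unconfirmed transcript RP23-422D12.3 inside *Parp11* was at -0.44 (edgeR adjusted p = 0.399). Of 20 other genes tested that overlap the 10 or lie within 50 kb of them, 0 were called in edgeR or limma on log2(CPM + 1), with a median log2 fold change of -0.04. DESeq2 called 1 lower (RP23-78C2.6), and limma-voom called the same transcript lower and *Kpna1* higher. Over all 19232 genes tested, DESeq2 called 3.8% and limma-voom 6.19% lower, and limma-voom called 968 genes higher. At an unadjusted p under 0.05 in edgeR, 2 of the neighbours were lower (RP23-78C2.6 and *Ttc5*) and 1 was higher (*Rpph1*), named after their values were seen. Over all genes tested, 2025 were lower and 1576 higher at that threshold.

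Of 11 genes of interferon signalling, 3 were called lower and 0 higher in edgeR, with a median log2 fold change of -0.02, beside 1.66% of all genes called lower. *Irf7*, an interferon-inducible factor that drives interferon genes, had 125, 114, 155, 158 and 40.0 CPM in PyMT *Pcbp1*+/+ replicates 1 to 5, with 11.4, 14.4 and 22.3 CPM as the lowest, median and highest of the PyMT *Pcbp1*–/– tumors. It did not overlap between the groups (log2 fold change -2.89, standard error 0.31, edgeR adjusted p = 0.00194), and its log2 fold change was -3.10 without replicate 5. *Stat2* had 51.8, 57.0, 83.8, 55.3 and 25.4 CPM in the controls and between 16.3 and 27.0 CPM in PyMT *Pcbp1*–/– tumors, with replicate 5 the only control inside that range (log2 fold change -1.42, standard error 0.24, edgeR adjusted p = 0.0112). Without replicate 5 the *Stat2* log2 fold change was -1.59 (adjusted p = 0.00131, within a range of 6.95e-06 to 0.0564 over the alternatives). *Irf9*, its partner in the complex that interferon activates, had 74.7, 73.6, 78.3, 74.3 and 39.5 CPM in the controls and between 30 and 46.4 CPM in PyMT *Pcbp1*–/– tumors (log2 fold change -0.85, standard error 0.17, edgeR adjusted p = 0.0254), and without replicate 5 its log2 fold change was -0.98 (adjusted p = 0.00269, within a range of 0.000453 to 0.0689). The *Irf9* call was lost without PyMT *Pcbp1*–/– replicates 3, 4 and 5 (edgeR adjusted p of 0.0657, 0.0624 and 0.0638) and without PyMT *Pcbp1*+/+ replicates 1, 3 and 4 (0.0576, 0.0689 and 0.0681), although its log2 fold change with each tumor left out lay between -0.98 and -0.75. At an unadjusted p under 0.05 in edgeR, 4 genes of the list were lower and 0 higher, beside 2025 of 19232 genes lower, with the 3 called joined by the kinase gene *Tyk2* (log2 fold change -0.44, adjusted p = 0.0794), which DESeq2 and limma-voom called and which is singled out after its values were seen. The receptor genes *Ifnar1* (0.09), *Ifnar2* (-0.02), *Ifngr1* (0.02) and *Ifngr2* (0.27), the kinase genes *Jak1* (0.21) and *Jak2* (-0.03) and the interferon-inducible factor gene *Irf1* (-0.01) had log2 fold changes that did not pass the test, with edgeR adjusted p-values from 0.374 to 0.970.

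Limma-voom called 6.19% of all genes tested lower, and 2025 of the 19232 genes were lower at an unadjusted p under 0.05 in edgeR. Of the 7 other PARP family genes, 0 were called in edgeR, DESeq2 or limma on log2(CPM + 1) and 1 in limma-voom (*Parp16*, lower), with a median log2 fold change of -0.16. At an unadjusted p under 0.05, 2 were lower in edgeR. These were *Parp16*, the family member of the endoplasmic reticulum, with means and SDs of 4.90 ± 0.71 CPM in 6 PyMT *Pcbp1*–/– and 7.15 ± 2.05 CPM in 5 PyMT *Pcbp1*+/+ tumors (log2 fold change -0.53, edgeR adjusted p = 0.128), and *Zc3hav1*, an antiviral family member that binds RNA. Mean *Zc3hav1* levels were 85.0 ± 3.41 and 100 ± 12.9 CPM in the same order, the log2 fold change was -0.24 (edgeR adjusted p = 0.182), and with replicate 5 left out all PyMT *Pcbp1*–/– tumors were below all controls. Of the 4 other Deltex genes, which encode ubiquitin ligases related to *Dtx3l*, 0 were called in edgeR, DESeq2 or limma on log2(CPM + 1) and 2 in limma-voom, both lower, with a median of -0.34. These were also the 2 at an unadjusted p under 0.05 in edgeR, *Dtx4* at -0.51 (adjusted p = 0.186) and *Dtx1* at -0.40 (adjusted p = 0.200).

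The enzymes that remove ADP-ribose showed no call. Of 8 genes tested, 0 passed in edgeR, DESeq2, limma-voom or limma on log2(CPM + 1), and 1, the chain-cleaving hydrolase gene *Parg*, was lower at an unadjusted p under 0.05, with a log2 fold change of -0.17 (edgeR adjusted p = 0.222). The median was 0.18, but -0.01 in limma-voom, and the largest absolute fold changes were those of *Enpp1*, at 0.51 (edgeR adjusted p = 0.334), and *Oard1*, at 0.30 (adjusted p = 0.398). *Adprhl1* and *Hpf1* were not analysed here. Among 13 genes of strand break repair, the pathway in which the products of *Parp1*, *Parp2* and *Parp3* act, 0 passed in any of those 4 tools, and the median was 0.04. At an unadjusted p under 0.05 in edgeR, *Polb* was lower (-0.29), and *Nhej1* (0.94, 95% interval 0.15 to 1.74, adjusted p = 0.193) and *Chd1l* (0.58, 95% interval 0.16 to 1.01, adjusted p = 0.138) were higher. They make 23.1% of the list, near the 18.7% of all genes tested at that threshold. *Nhej1* had low counts, between 2 and 27 per tumor. DESeq2 gave no adjusted p for *Nhej1*, nor for *Nadsyn1* named next. Of 7 genes of the synthesis of NAD, the substrate of PARPs, 3 passed the filter and 0 were called in edgeR, DESeq2 or limma on log2(CPM + 1), with a median of 0.03. That median was -0.25, -0.19 and -0.23 without PyMT *Pcbp1*+/+ replicates 2, 3 and 5, where *Nmnat2* passed the filter and joined the list (log2 fold change -0.46 without replicate 5). *Nadsyn1*, called lower in limma-voom, averaged 0.615 ± 0.222 CPM (SD) without and 1.32 ± 0.311 CPM with *Pcbp1*, and its groups did not overlap (log2 fold change -1.11, edgeR adjusted p = 0.0677). It was the 1 gene of its list at an unadjusted p under 0.05. Its counts were low, between 5 and 21 per tumor. Limma-voom called 6.19% of all genes tested lower, and 2.02% were lower in CPM without overlap. The other gene named by size, *Nmnat1*, was at 0.21 (edgeR adjusted p = 0.513), and *Nampt* was not analysed here.

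Promoter sequences from RefSeq (GRCm38.p6), which run from 250 bases before to 50 bases after a gene's start, were at hand for 7 of the 10 genes, as 8 windows. There were none for *Parp9*, *Parp10* and *Parp14*. The core letters of the interferon-stimulated response element were searched on both strands as TTTCNNTTTC and GAAANNGAAA, and those of the gamma-activated sequence as TTCNNNGAA, which reads alike on both strands. The former occur in 3.44% and the latter in 8.30% of all 32851 windows of this length. Among the windows of the listed genes only the first of *Parp11* held either. Its TTTCGATTTC begins 44 bases before the start of the gene and overlaps TTCTTGGAA, a match to the other motif. *Parp4*, a family member outside the 10 genes and singled out after the search, has 2 overlapping matches, the first 150 bases before its start, and had a log2 fold change of -0.04 (edgeR adjusted p = 0.868). *Parp16*, also outside the 10 genes and called lower by limma-voom alone, has a match to the gamma-activated sequence, TTCAGAGAA, that spans the RefSeq start of its window, which lies inside the counted gene. Both stretches are shown because they hold the letters of an interferon element beside genes that edgeR did not call, although limma-voom called *Parp11* lower, with the first match in capitals, *Parp11* from chr6:127446771-127446830 and *Parp4* from chr14:56575444-56575503, both on the plus strand. A match is a description and not a shown binding site.
Parp11: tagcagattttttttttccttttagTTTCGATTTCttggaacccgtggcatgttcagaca
Parp4: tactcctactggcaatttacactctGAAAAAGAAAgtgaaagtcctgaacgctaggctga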

How the data were processed

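RNA from 11 frozen mammary tumors was sequenced in bulk. The authors checked the reads with FastQC, aligned them to GRCm38 with Bowtie2 and processed them in Partek Flow; the annotation version, the counting method and its use of strand are not given in the sources used here. The authors deposited estimated counts per gene and the same counts as CPM, scaled by each tumor's total. Gene ends are printed 1 base before the deposited stop.

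Estimated counts were rounded and fitted with edgeR 4.0.16 in R 4.3.3 (TMM factors, default filter on low counts, quasi-likelihood test, genotype only), with Benjamini-Hochberg adjustment over the 19232 genes kept. Values quoted per tumor in CPM are deposited CPM, while those described as log2 CPM with TMM factors are on that scale instead. Standard errors were derived from each fold change and its F statistic. Correlations used log2 CPM (TMM, prior count 1) as deviations from the mean of the own genotype. Transcript lengths are those of GENCODE vM39 canonical transcripts, matched by identifier.

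Named genes were the 10 members and *Pcbp1*, the called genes of each list (or, with none, the 2 largest absolute fold changes), overlapping neighbours, and the 5 genes most like *Parp14*, *Parp9*, *Parp3* and *Parp1*. *Parg* and *Polb* were also named, after their values were seen, for an unadjusted p under 0.05. The members and lists were chosen with earlier results of these data known. After the values were seen, 2 genes were taken out of the lists, for a reason unrelated to their values. The alternatives were library size only, DESeq2 1.42.0, limma-voom with sample quality weights and limma with a trend on log2(CPM + 1) (limma 3.58.1), no filter, at least 1 CPM in at least 5 tumors, protein-coding genes only, the replicate number as a block, and each tumor left out. The fits were tested on simulated counts.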

Additional observations from a re-analysis of the deposited data

Results flagged for a closer look

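In 3 of 28 groups of values checked (14 genes in 2 genotypes), a tumor lay far from the rest of its group, where chance alone gives about 1 in 20. Each time it was the lowest PyMT *Pcbp1*+/+ tumor, replicate 5. The genes were measured in the same libraries and some vary together. The 3 cases are therefore not separate observations and cannot be weighed against that rate. *Parp12* had 19.0 CPM there against 38.0 CPM in the nearest tumor of the group. *Dtx3l* had 128 CPM there against 161 CPM in the nearest, and *Irf9* had 39.5 CPM against 73.6 CPM. The cause was not tested.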

How the results depend on the processing

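Of the 10 genes, *Parp3* was called lower under every alternative run and *Parp1*, *Parp2*, *Parp8* and *Dtx3l* under none. The members called lower numbered 4 in the edgeR fit, between 3 and 6 with other tools, filters or scalings, and between 1 and 5 with each tumor left out; none was called higher in any fit. The interferon-linked members called numbered 3, against 5 in limma-voom and between 0 and 4 with each tumor left out. Over all genes, 319 were lower and 117 higher, against 730 and 486 in DESeq2 and 1190 and 968 in limma-voom, which also moves the split towards higher genes. Leaving out each tumor gave between 144 and 389 lower and between 41 and 187 higher genes; both counts dropped by over 1.5 times without PyMT *Pcbp1*–/– replicate 3, 4, 5 or 6 or PyMT *Pcbp1*+/+ replicate 1, 3 or 4, and the higher genes were most numerous without PyMT *Pcbp1*+/+ replicate 2. The interferon signalling genes called lower numbered 3, against 4 in DESeq2 and limma-voom and between 2 and 3 with each tumor left out. *Parp1* turned from -0.09 to 0.05 in limma-voom. The median log2 fold change of the genes of ADP-ribose removal was -0.01 there against 0.18, and that of NAD synthesis, 0.03, ranged from -0.25 to 0.13 with each tumor left out, the negative end where *Nmnat2* joined the list. That of interferon signalling, -0.02, ranged from -0.13 to 0.03. *Nadsyn1* and *Nhej1* have no DESeq2 value, since its filter gave them no adjusted p. The cause of the other shifts was not tested; fits without a tumor have fewer samples.

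With the replicate number as a block, on the 10 tumors that share a number, 118 genes were lower, 42 were higher, and 1 member (*Parp3*), 0 of the interferon-linked members and 2 of the interferon signalling genes were called, the *Stat2* call being lost at an adjusted p of 0.0564. The log2 fold changes were near those without it: -1.07 for *Parp14*, -0.91 for *Parp12*, -0.76 for *Parp10* and -1.37 for *Stat2*. The labels do not say whether the numbers pair the tumors. Deviations of same-numbered tumors correlated at 0.13, 0.09, -0.07, -0.14 and 0.28 for numbers 1 to 5, which cannot decide it. PyMT *Pcbp1*–/– replicates 1 and 5 correlated best with the control of their own number, and replicates 2, 3 and 4 with another control. Depth limits *Parp3*, *Parp2* and *Parp8* most, at 48 to 165 counts per tumor.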
